A study of Rattus norvegicus with 6 samples.

Results

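The postsynaptic density is the protein meshwork under the receptors of an excitatory synapse, and 47 genes of its scaffolds, adhesion molecules, kinases, phosphatases and calcium signalling were listed by symbol for rat hippocampus. Of these, 46 were matched among the 35362 symbols of the mRNA table, each on 1 line, and 45 reached the floor of 1 FPKM in either library. The list was drawn up by known function, with earlier results of these data known. Lrrtm1 was not analysed here, and Shank2 lay below the floor.

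Hippocampus came from Sprague-Dawley rats labelled as 7 weeks of age. The B[a]P group received benzo[a]pyrene, a polycyclic aromatic hydrocarbon that activates the aryl hydrocarbon receptor. It was dissolved in corn oil and given by oral gavage each day at 2.0 mg/kg for 7 weeks. The control group received an equal volume of corn oil by the same route for 7 weeks. The labels do not tie that age to the beginning or the close of dosing. Each group had 1 RNA-seq library, and the labels do not say whether a library came from 1 animal or from pooled tissue. No difference below therefore has a replicate check, no p-value was computed, and every comparison is of 2 libraries, not of the conditions. Below, a value "under B[a]P" is that of the B[a]P library and a value "under corn oil" that of the control library. Values are FPKM (fragments or reads scaled to transcript length and library size), a unit taken from the values because no label states it.

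At a glutamatergic synapse, calcium entering through NMDA receptors binds calmodulin. Calmodulin then activates the kinase CaMKII, which favours potentiation, and the phosphatase calcineurin, which favours depression. Scaffolds hold these enzymes near the receptors: the MAGUK proteins of the Dlg genes bind receptor tails, the GKAP proteins of the Dlgap genes join MAGUKs to Shank, and Homer joins Shank to metabotropic receptors and to calcium release channels. Adhesion proteins such as neuroligins reach across the cleft to presynaptic neurexins. In the hippocampus this machinery is best known for long-term potentiation.

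The genes of this machinery were abundant and differed little between the libraries. Summed over the 46 genes, the level was 2721 FPKM under B[a]P and 2521 FPKM under corn oil, a ratio of 1.08. The log2 ratio of B[a]P to control, computed on FPKM + 1, had a median of 0.12 over the 45 genes, and it ranged from -0.19 for Nrgn to 0.37 for Ryr2. The middle 50% of the genes lay between 0.07 and 0.19. Of the 45 genes, 41 were higher and 4 were lower under B[a]P, but 74.5% of all 13261 genes above the floor were also higher. The table as a whole had a median of 0.09 with an SD across genes of 0.25, and 31 of the 45 genes lay above that median, as 50% of all genes do. Per mean level, the 33 members between 10 and 100 FPKM had a median of 0.12, and all 4615 genes of that range had a median of 0.10.

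On the scale of FPKM + 1, 2 of the 45 genes were higher by 25% or more, Ryr2 and Camk4, against 4.29% of all genes. With the libraries scaled to the median or the upper quartile of all genes, or to the neuronal markers, the count was 0. No member was lower by 20% or more, the same fold in the other direction, against 2.74% of all genes. None reached 1.5-fold in either direction, against 0.603% of all genes higher and 1.18% lower, or 2-fold, against 0.151% higher and 0.52% lower. With so few genes past any of these folds, the members' shares cannot be told from the background.

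**Figure D1:**
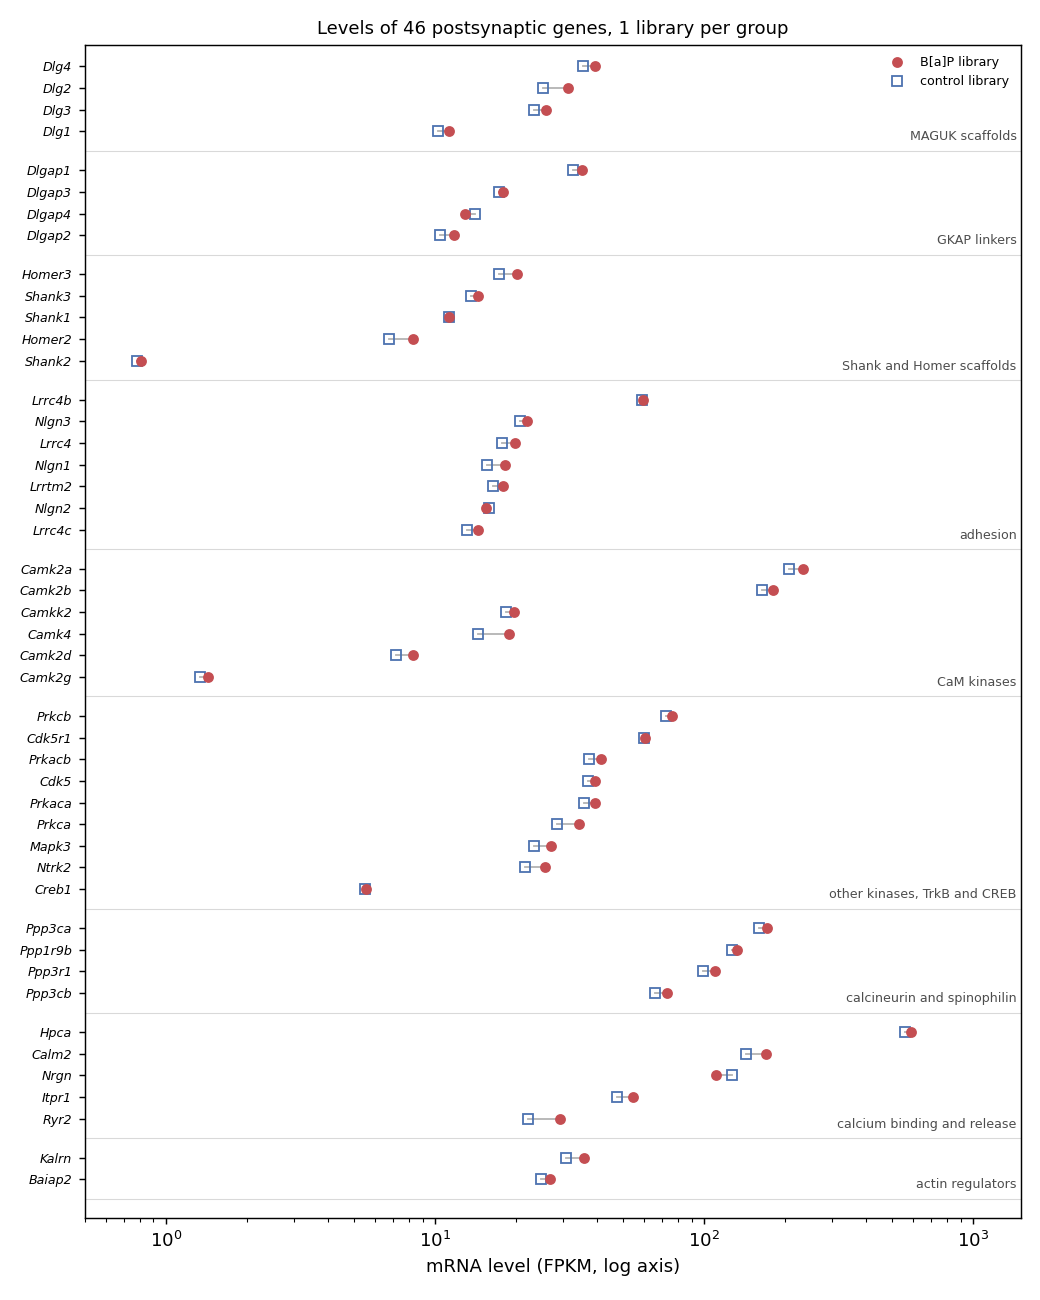
Levels of the 46 genes found (horizontal axis, FPKM, log scale), grouped by role, with a filled circle for the B[a]P library and an open square for the control library. The symbols of a gene lie close together over a range from 0.780 FPKM (Shank2, control library) to 590.0 FPKM (Hpca, B[a]P library), and 1 library stands for each group, so there are no error bars.

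The extremes of the list are the genes by which it is best seen, so their promoters are shown. Ryr2 and Camk4 had the highest log2 ratios, Nrgn and Dlgap4 the lowest, and the 250 bases before the start site of each are given 5′ to 3′ from RefSeq (build GRCr8). Capitals mark GCGTG, the core letters of the aryl hydrocarbon receptor's response element, on either strand, so that its reverse complement CACGC is capitalised too. The Ryr2 stretch is chr17:63081277-63081526 (plus strand), that of Camk4 chr18:24856902-24857151 (plus strand), that of Nrgn chr8:45452418-45452667 (minus strand) and that of Dlgap4 chr3:165584110-165584359 (plus strand).
Ryr2: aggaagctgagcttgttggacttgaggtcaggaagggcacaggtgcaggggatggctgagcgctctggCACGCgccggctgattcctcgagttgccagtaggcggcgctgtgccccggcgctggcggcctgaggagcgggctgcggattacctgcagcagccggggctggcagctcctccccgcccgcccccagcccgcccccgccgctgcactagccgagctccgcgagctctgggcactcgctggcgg
Camk4: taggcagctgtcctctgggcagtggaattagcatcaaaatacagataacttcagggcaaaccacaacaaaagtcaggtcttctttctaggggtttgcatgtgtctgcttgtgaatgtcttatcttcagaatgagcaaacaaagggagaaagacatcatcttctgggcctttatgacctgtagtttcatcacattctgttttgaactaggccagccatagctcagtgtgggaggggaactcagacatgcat
Nrgn: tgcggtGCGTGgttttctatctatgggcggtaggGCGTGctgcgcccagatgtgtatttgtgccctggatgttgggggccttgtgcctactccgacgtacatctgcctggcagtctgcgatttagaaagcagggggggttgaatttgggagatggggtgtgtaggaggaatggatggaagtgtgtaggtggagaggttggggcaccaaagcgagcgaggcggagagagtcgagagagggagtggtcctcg
Dlgap4: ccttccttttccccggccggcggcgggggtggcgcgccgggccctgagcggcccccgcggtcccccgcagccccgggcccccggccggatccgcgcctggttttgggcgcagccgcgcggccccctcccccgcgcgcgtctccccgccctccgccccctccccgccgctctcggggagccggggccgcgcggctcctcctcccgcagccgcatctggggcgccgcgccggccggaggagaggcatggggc
The GCGTG letters were found 1 time before Ryr2 and 2 times before Nrgn, and 0 times before Camk4 and Dlgap4, so they stood at both ends of the list. Base composition differed widely. The share of G and C was 72% before Ryr2 and 84.4% before Dlgap4, and 44.4% before Camk4, which held 0 CpG dinucleotides against 23 before Ryr2, 13 before Nrgn and 40 before Dlgap4.

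Promoters were matched by symbol for 36 of the 46 genes. That is under 80%, so any reading of promoter features over the whole list is void, and the counts that follow describe those 36 alone. In the same 250 bases, GCGTG was present before 14 of the 36 genes, among them Dlg4, Prkca and Ppp3ca, and before 25.9% of all 33469 promoters. The GC box GGGCGG was present before 17 of the 36 and 30.5% of all promoters. The full cAMP response element TGACGTCA, the site of the factor encoded by Creb1, was found before Lrrtm2 alone among the 36 and before 1.59% of all promoters, and the shorter TGACG, which lies within it, before 7 of the 36 and 18.2% of all promoters. All motifs were searched on both strands. A match is a description of letters, not a site of binding.

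Among the scaffolds, all 4 MAGUK genes were higher under B[a]P, as deposited and relative to the median of all genes, but relative to the neuronal markers described below Dlg2 alone was. Dlg4, which encodes the main MAGUK of the mature postsynaptic density, was at 39.2 FPKM under B[a]P and 35.4 FPKM under corn oil. Dlg2 was at 31.2 against 25.3 FPKM, a ratio of 1.23 and a log2 ratio of 0.29, which is higher than 94.0% of all genes. Dlg3, the MAGUK known for early synapses, was at 26.0 against 23.4 FPKM, and Dlg1, also found outside synapses, at 11.3 against 10.3 FPKM. The order Dlg4, Dlg2, Dlg3, Dlg1 was the same in both libraries. Of the family's summed level, Dlg2 took 29.0% in the B[a]P library against 26.8% in the control library, and Dlg4 took 36.4% against 37.5%. These shares do not depend on how the libraries are scaled to each other.

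The GKAP genes lay on both sides. Dlgap1, the most abundant, was at 35.1 FPKM under B[a]P and 32.6 FPKM under corn oil. Dlgap2 was at 11.8 against 10.4 FPKM, and Dlgap3, whose loss in mice is known for compulsive grooming, at 17.9 against 17.3 FPKM. Dlgap4 was lower, at 12.9 against 14.1 FPKM (log2 ratio -0.11), with a log2 ratio above that of 10.02% of all genes. Its share of the family was 16.6% against 18.9%, and that of Dlgap1 45.2% against 43.8%.

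The Shank genes, which encode the scaffolds deepest in the density, were nearly level. Shank3 was at 14.4 FPKM under B[a]P and 13.6 FPKM under corn oil. Shank1 was at 11.3 FPKM in both (log2 ratio -0.01). Shank2 was at 0.805 against 0.780 FPKM, about 3.04% of the summed Shank level in either library. Homer2 and Homer3, which encode Homer proteins able to link Shank to metabotropic glutamate receptors, lay further from 0. Homer2 was at 8.26 against 6.77 FPKM, a ratio of 1.22, and Homer3 at 20.1 against 17.2 FPKM, a ratio of 1.17. Their paralogue Homer1, which also yields a short activity-induced form that the table does not separate, was at 20.003 against 20.5 FPKM. Homer1 was thus the most abundant of the 3 in the control library. In the B[a]P library Homer3 and Homer1 were nearly equal, at 20.1 and 20.003 FPKM.

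Among the adhesion genes, 6 of the 7 found were higher under B[a]P and Nlgn2 was lower, while 5 of the 7 exceeded the median of all genes and Nlgn1 alone that of the neuronal markers. Nlgn1, the neuroligin of excitatory synapses, was at 18.2 FPKM under B[a]P and 15.6 FPKM under corn oil. Nlgn2, the neuroligin of inhibitory synapses, was at 15.5 against 15.9 FPKM. The level of Nlgn2 over that of Nlgn1 was 0.849 in the B[a]P library and 1.02 in the control library, where they were nearly equal. Nlgn3, found at both kinds of synapse, was at 22.0 against 20.7 FPKM and kept close to 39.6% of the family's level in each library (39.5% against 39.6%). The neurexin ligand gene Lrrtm2 was at 17.8 against 16.5 FPKM.

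The netrin-G ligand family is a second set of postsynaptic adhesion proteins, with leucine-rich repeats. Lrrc4b, which encodes the member that binds the receptor phosphatase LAR, was the most abundant at 59.5 FPKM under B[a]P and 58.8 FPKM under corn oil. Lrrc4 was at 19.9 against 17.8 FPKM and Lrrc4c at 14.4 against 13.2 FPKM. The share of Lrrc4b in the family was 63.5% against 65.5%.

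**Figure D2:**
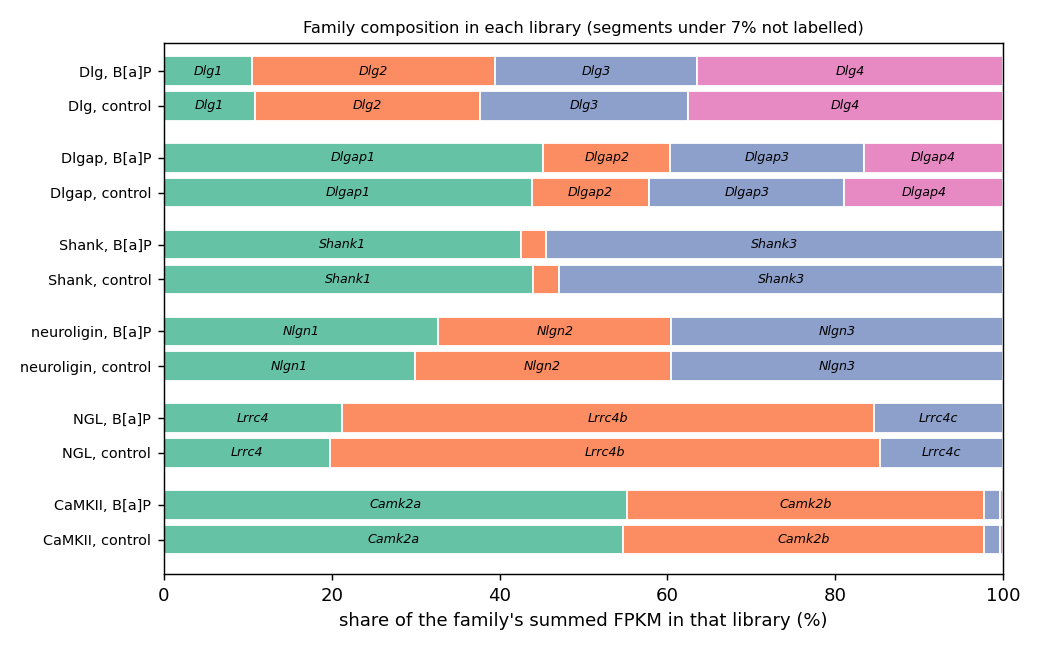
Share of each family's summed FPKM taken by each gene (horizontal axis, percent), with the B[a]P library above the control library for 6 families. The bars of a pair are nearly alike: the widest shifts are in the neuroligins, where Nlgn1 took 32.7% against 29.9% and Nlgn2 27.8% against 30.5%.

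The kinase genes were led by the CaMKII subunits of forebrain neurons, whose higher values under B[a]P lay above the median of all genes for Camk2a and Camk2b and below that of the neuronal markers. Camk2a was at 233.6 FPKM under B[a]P and 207.7 FPKM under corn oil, a ratio of 1.12. Camk2b, whose product also binds actin, was at 180.1 against 163.7 FPKM. The level of Camk2a over Camk2b, which bears on the make-up of the holoenzyme, was 1.30 against 1.27. The subunits of wider tissue distribution were far lower per length: Camk2d was at 8.28 against 7.16 FPKM and Camk2g at 1.44 against 1.34 FPKM. Together they made up a small part of the CaMKII level, 1.96% and 0.340% in the B[a]P library against 1.88% and 0.352% in the control library.

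Camk4, a nuclear calmodulin kinase that phosphorylates CREB, was at 18.8 FPKM under B[a]P and 14.5 FPKM under corn oil. Its ratio of 1.30 (log2 ratio 0.35) was the second highest of the list and lay above 96.9% of all genes. Camkk2, which encodes an activating kinase of CaMKIV, was at 19.7 against 18.4 FPKM. Creb1 itself was among the least abundant members, at 5.57 against 5.49 FPKM.

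The other kinase genes, with Creb1 and Ntrk2, were all higher under B[a]P, over a range of log2 ratios from 0.003 to 0.27, but 4 of these 9 lay below the median of all genes. Prkca, a calcium-dependent protein kinase C gene, was at 34.4 FPKM under B[a]P and 28.4 FPKM under corn oil, a ratio of 1.21. Its relative Prkcb was at 75.7 against 72.4 FPKM, and the share of Prkca in the sum of both was 31.2% against 28.2%. The PKA catalytic genes Prkaca (39.2 against 35.96 FPKM) and Prkacb (41.3 against 37.3 FPKM) stayed near equal levels. Mapk3, which encodes the MAP kinase ERK1, was at 27.0 against 23.4 FPKM. Ntrk2, which encodes the BDNF receptor TrkB, was at 25.6 against 21.5 FPKM, a ratio of 1.19. It is also transcribed in astrocytes, whose markers are given below. Cdk5 was at 39.2 against 36.9 FPKM, and Cdk5r1, which encodes its neuronal activator, at 60.1 against 59.98 FPKM, the log2 ratio nearest to 0 of the list.

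Calcineurin and spinophilin genes lay close to the table's median. Ppp3ca, the main catalytic subunit gene in neurons, was at 171.7 FPKM under B[a]P and 160.7 FPKM under corn oil. Ppp3cb was at 72.9 against 66.0 FPKM and the regulatory subunit gene Ppp3r1 at 109.5 against 99.6 FPKM. The level of Ppp3ca over Ppp3cb was 2.36 against 2.44. Ppp1r9b, which encodes spinophilin, the protein that targets protein phosphatase 1 to spines, was at 132.5 against 127.1 FPKM.

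The calcium genes held both ends of the list. Ryr2, which encodes a ryanodine receptor that releases calcium from the endoplasmic reticulum, was at 29.1 FPKM under B[a]P and 22.2 FPKM under corn oil. Its ratio of 1.31 (log2 ratio 0.37) was the highest of the 45 genes and lay above 97.5% of all genes. Itpr1, which encodes the inositol trisphosphate receptor of the same store, was at 54.4 against 47.5 FPKM, a ratio of 1.15. The level of Ryr2 over Itpr1 was 0.534 against 0.467.

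Nrgn, which encodes neurogranin, a dendritic protein that holds calmodulin when calcium is low, was the lowest of the list. It was at 111 FPKM under B[a]P and 127 FPKM under corn oil, 1.15-fold lower (log2 ratio -0.19), and only 5.62% of all genes had a ratio as low. Calm2, a calmodulin gene, lay the other way, at 169 against 143 FPKM. Neurogranin's level over that of Calm2 was 0.657 against 0.889. Calmodulin is encoded by several related genes, so the reads assigned to Calm2 are uncertain where copies share sequence. Hpca, which encodes hippocalcin, a calcium sensor of pyramidal cells, was the most abundant member, at 590.0 against 560.2 FPKM.

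The actin regulators were both higher under B[a]P, also relative to the median of all genes, and relative to the neuronal markers Kalrn alone was. Kalrn, which encodes kalirin, an exchange factor of small GTPases that shapes spines, was at 35.8 FPKM under B[a]P and 30.6 FPKM under corn oil. Baiap2, which encodes the membrane-bending scaffold IRSp53, was at 26.7 against 24.8 FPKM.

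**Figure D3:**
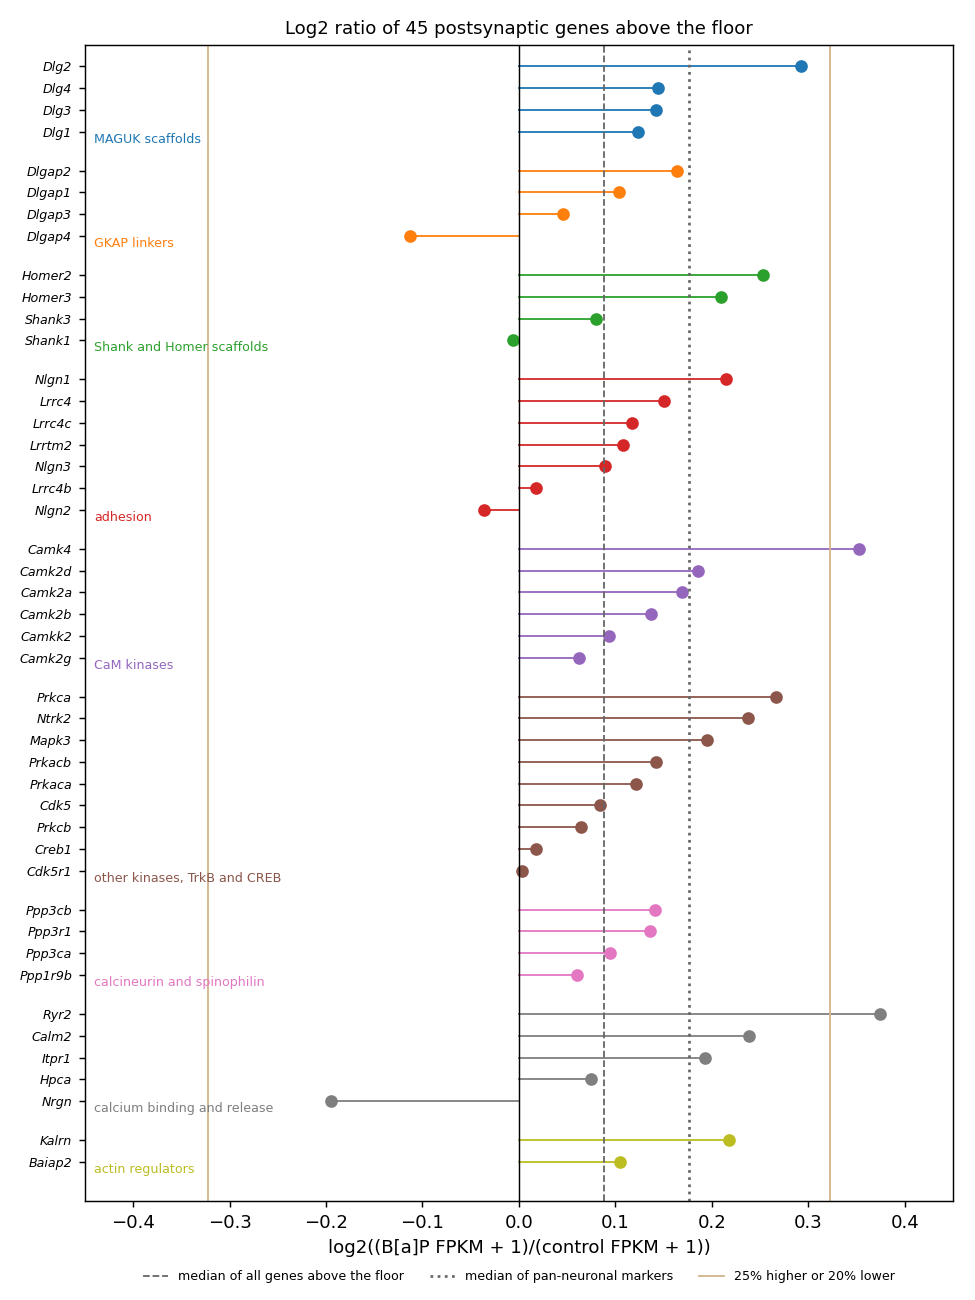
Log2 ratio of B[a]P to control on FPKM + 1 (horizontal axis) for the 45 genes above the floor, grouped by role, with lines at 25% higher and 20% lower, at the median of all genes (0.09) and at the median of the pan-neuronal markers (0.18). Ryr2 and Camk4 lie past 25% as deposited, though neither does once the libraries are scaled to the median of all genes, and Nlgn2, Dlgap4, Shank1 and Nrgn lie below 0.

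The role groups overlapped. The median log2 ratio was 0.14 for the MAGUK genes, 0.07 for the GKAP genes, 0.14 for the Shank and Homer genes above the floor and 0.11 for the adhesion genes. It was 0.15 for the CaM kinases, 0.12 for the other kinases with TrkB and CREB, 0.12 for calcineurin and spinophilin, 0.19 for calcium binding and release and 0.16 for the actin regulators. Log2 ratios within a group ran from -0.19 to 0.37 among the calcium genes and from 0.06 to 0.35 among the CaM kinases, and over a narrower range, from 0.06 to 0.14, among the calcineurin and spinophilin genes.

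The order of the levels was nearly the same in both libraries (Spearman correlation 0.994 over 45 genes, which share each library's depth and scaling). The level did not go with the ratio: the Spearman correlation between the mean FPKM and the log2 ratio was -0.009 over the same 45 genes.

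**Figure D4:**
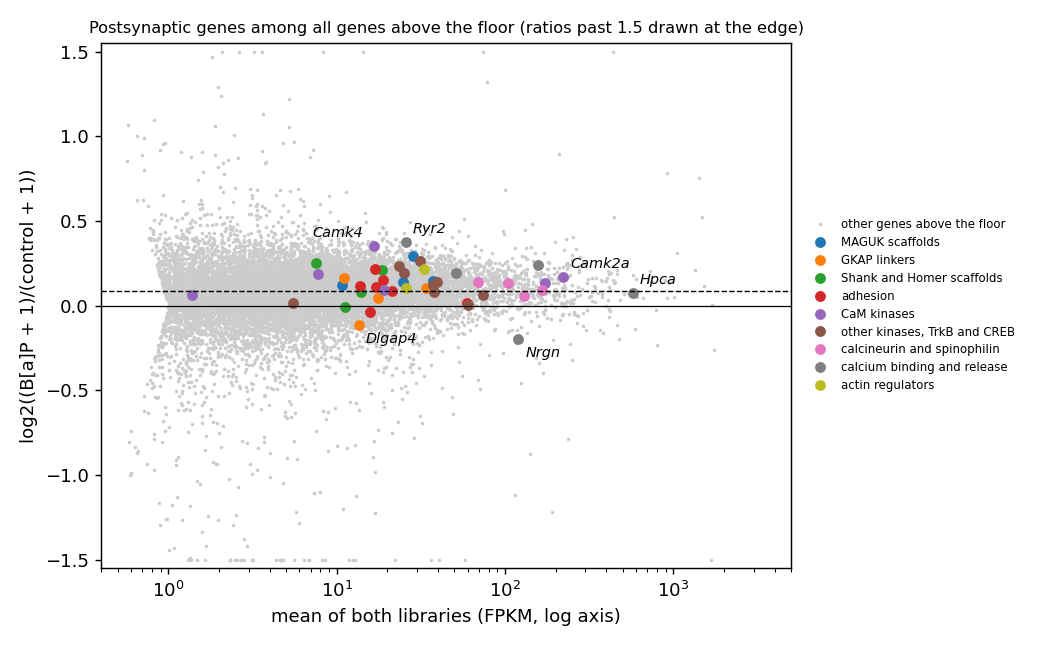
Log2 ratio of B[a]P to control (vertical axis) against the mean FPKM of both libraries (horizontal axis, log scale), with the 45 genes coloured by role over all other genes above the floor in grey. The coloured points stay within the dense band of grey ones, whose median (0.09, dashed line) lies above 0.

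Markers of cell types differed between the libraries as well, and in bulk tissue fewer cells of a type cannot be told apart from less RNA per cell. Of 11 pan-neuronal markers, 10 were above the floor, and all 10 were higher under B[a]P. The marker below the floor was Eno2, at 0.0865 against 0.0817 FPKM. The list summed to 1689 FPKM under B[a]P and 1471 FPKM under corn oil. The median log2 ratio of these 10 was 0.18, in a range from 0.06 (Nefm) to 0.45 (Map2). Above that median lay 13 of the 45 postsynaptic genes and 23.2% of all genes. Set against the median of these pan-neuronal markers, 32 of the 45 postsynaptic genes were lower, not higher, under B[a]P, and their median became -0.053. Of the 10 markers, Nefm and Nefl (0.07) lay below the postsynaptic genes' median of 0.12, and the rest lay above it. Markers of hippocampal glutamatergic neurons were present in both libraries, and the list's 6 genes summed to 589.9 against 543.6 FPKM. Most of that sum was Slc17a7, the vesicular glutamate transporter gene, at 399 against 360 FPKM. Of the 6 genes, 4 were higher under B[a]P and 2 lower. Besides Slc17a7, the higher ones were Prox1 at 10.5 against 8.15 FPKM, Bok at 43.0 against 37.8 FPKM and Neurod6 at 75.4 against 71.9 FPKM. The lower ones were Wfs1 at 54.7 against 57.4 FPKM and Fibcd1 at 7.55 against 8.59 FPKM. The median log2 ratio of this list was 0.11, below the 0.12 of the postsynaptic genes. These medians were nearly equal. The list's own log2 ratios ran from -0.16 (Fibcd1) to 0.33 (Prox1), so no direction can be read from their difference.

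Astrocyte markers summed to 1609.6 against 1395 FPKM, with 9 of 10 higher under B[a]P. Oligodendrocyte markers summed to 1906 against 2186 FPKM, with 8 of 10 lower. Choroid plexus markers summed to 65.4 FPKM under B[a]P and 3424 FPKM under corn oil, with all 9 above the floor over 2-fold lower. The other lists differed by less in sum, except the meningeal one. Interneuron markers summed to 214 against 191 FPKM, microglial ones to 161 against 164 FPKM, endothelial and mural ones to 91.5 against 97.6 FPKM, markers of striatum and thalamus to 27.9 against 29.0 FPKM, and meningeal ones to 17.4 against 39.3 FPKM. No marker of these lists was at 0 in either library. The microglial sum was lower under B[a]P although 7 of its 10 markers were higher, with a median log2 ratio of 0.11. The 3 lower ones were C1qa, C1qb and C1qc, the last at 17.5 against 25.1 FPKM. The part of these differences in the values of the postsynaptic genes was not tested.

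Other genes of the same machinery, listed by function and not among the 47, had much the same values. Of 79 such genes, 77 were above the floor, and 70 were higher and 7 lower under B[a]P, against 74.5% of all genes higher. Of the 77, 54 lay above the median of all genes, as 50% of all genes do, and the median log2 ratio was 0.14. By the same fold, as deposited, 5 were at least 25% higher, against 4.29% of all genes. At least 20% lower were 0, against 2.74%. None reached 1.5-fold, against 0.603% of all genes higher and 1.18% lower. The highest was Pcp4, which encodes a small calmodulin-binding protein with the same kind of binding motif as neurogranin, at 111.9 against 82.0 FPKM, a ratio of 1.37. It was followed by Adcy1, a calmodulin-stimulated adenylyl cyclase gene, at 113.5 against 84.5 FPKM. The lowest were Cdk5r2, which encodes the other Cdk5 activator, at 18.4 against 22.9 FPKM (log2 ratio -0.30), and the adhesion gene Flrt2 at 7.40 against 8.38 FPKM. By role, the median was 0.09 for 13 scaffold genes, 0.17 for 11 adhesion genes, 0.11 for 18 kinase genes, 0.11 for 8 phosphatase genes, 0.22 for 17 calcium and cAMP genes and 0.14 for 10 actin and small GTPase genes.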

How the data were processed

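RNA was extracted from flash-frozen hippocampus and made into libraries with standard Illumina protocols, per the labels' protocols. The 2 RNA-seq libraries were grouped by their titles. Per the submitters' processing notes, bcl2fastq and the builds rn6 and rn5 are named, with no role given. Which aligner, counter and annotation the authors used is not given in the sources used here. Per library, the authors deposited 1 FPKM value per line in each of the mRNA and lncRNA tables. The unit was inferred: sums exceed a per-million scale, and for 80.9% of 3143 symbols under 0.05 FPKM the libraries' ratio lay within 0.001 (natural log) of a ratio of whole numbers up to 6 times 1 constant (0.138% with that constant displaced). By it, the B[a]P library was the shallower, by a factor of 1.06. The absolute depth is unknown, so no counting interval was computed.

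Log2 ratios used a pseudocount of 1 FPKM, which understates the ratio of low genes, and a floor of 1 FPKM in either library. Ratios printed for single genes have no pseudocount. With 1 library per group, no test was run. The share of all genes past each fold (25%, 1.5-fold and 2-fold) stands beside the members' counts. All members may be named. Of the other genes, those past 1.5-fold and the 2 highest and 2 lowest are named, and so are paralogues and markers chosen after their values were seen. Members and lists were chosen with earlier results of these data known. The calculation was tested on simulated shifts. Python 3.11.15, pandas 2.3.3 and numpy 2.4.6 were used. The miRNA and RRBS tables were not used here. Alternatives in pseudocount, floor and scaling are given in the closing section.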

Additional observations from a re-analysis of the deposited data

Results flagged for a closer look

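Dlg4 also has a line in the lncRNA table, which was not used for the comparison, and it is listed here as a value outside the table compared. There it was at 25.5 FPKM under B[a]P and 24.1 FPKM under corn oil. These values are 0.648 and 0.679 times those in the mRNA table. Over 5098 symbols with a single line and above 0 in both tables the median of this factor was 0.474 in the B[a]P library and 0.497 in the control library, so the Dlg4 line was 1.37 times the usual factor in each. What the line counts was not tested.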

How the results depend on the processing

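The median log2 ratio of the 45 genes stayed positive under a pseudocount of 0.1 or none, floors of 5 FPKM, of 1 FPKM on the mean, or none, and scaling to the median or the upper quartile of all genes, with a range of 0.04 to 0.14. Scaling to the median of the pan-neuronal markers turned it to -0.053. The count of genes at least 25% higher was 2 as deposited, and 0 under each of the 3 scalings. The count at least 20% lower was 0 as deposited and 1 under the neuronal scaling, and that gene was Nrgn. The scalings to all genes' median and to the neuronal markers subtract a constant by construction, of 0.09 and 0.18 on the log2 scale. The upper quartile scaling multiplies the control values before the pseudocount is added. The count above the median of all genes ranged from 28 to 41, the last of 46 genes with no floor, where genes near 0 set the median. Summing the lines of a symbol was not run, as no symbol is on more than 1 line. No paired analysis was possible because each group has 1 library. The absolute depth is unknown, so differences as small as most of those given cannot be set against counting error.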
